A study of Homo sapiens with 6 samples.

Results

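The 50 genes described here copy DNA or prepare the cell to do so, and were chosen by name from the deposited table of 24526 genes. They belong to 9 roles: origin licensing (11 genes), helicase activation (6), the sliding clamp and its loader (6), the replicative polymerases and primase (9), single-strand binding (3), joining of Okazaki fragments (2), nucleotide supply (5), E2F transcription factors (2), and chromatin assembly, histone mRNA and fork checkpoint (6). All 50 were found in the table and all 50 were among the 16297 genes tested. RNA was sequenced from WM266.4, an established human melanoma cell line, 48 h after transfection with siRNA against RIPK4 (RIPK4.si, 3 libraries) or with a negative control siRNA (neg.si, 3 libraries). A single Silencer Select siRNA was used for RIPK4 and the transfection was transient, so the comparison holds for 1 sequence at 1 time. RIPK4 is a serine/threonine kinase, and the comparison asked which transcripts depend on it. Cells were not sorted by cell cycle phase, so a different share of cells in S phase and a different amount of RNA per S-phase cell cannot be told apart.

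Before S phase, ORC, CDC6 and CDT1 load the ring-shaped MCM2-7 helicase onto origins, a step called licensing. At the start of S phase, CDC45 and the GINS complex join MCM2-7 to form the active helicase, the primase starts each new strand with a short RNA primer, and the clamp PCNA, loaded by replication factor C, holds the polymerases on the template. Many of these genes are transcribed together at the G1/S boundary under E2F factors, so their transcripts are widely used as a readout of proliferation.

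E2F-binding letters were present near the start site of 23 of the 44 genes for which a promoter could be read. The letters were not used to choose the genes. The choice of S-phase genes nevertheless favours genes under E2F factors, so the share is a description and not an independent result. Promoter windows of 300 bases (250 before and 50 after the start site; RefSeq, GRCh38.p14) were on hand for 44 of the 50 genes, and both strands were searched for TTTCCCGC, TTTCGCGC, TTTGCCGC and TTTGGCGC, the core letters bound by E2F factors, with overlapping matches counted. This share of 52.3% stood against 6.41% of 11037 tested genes and 3.99% of 27305 genes with a window. The letters CCAAT, on either strand, were present for 27 of 44 (61.4%), against 42.9% of tested genes. The windows of MCM6 (chr2:135876444-135876693, minus strand) and E2F1 (chr20:33686386-33686635, minus strand) are shown for the 250 bases before the start site, since each carried more than 1 match and each gene had the highest log2 fold change of its role. Capitals mark the matches, and each run of 12 capitals in MCM6 is a pair of overlapping matches on opposite strands.
MCM6: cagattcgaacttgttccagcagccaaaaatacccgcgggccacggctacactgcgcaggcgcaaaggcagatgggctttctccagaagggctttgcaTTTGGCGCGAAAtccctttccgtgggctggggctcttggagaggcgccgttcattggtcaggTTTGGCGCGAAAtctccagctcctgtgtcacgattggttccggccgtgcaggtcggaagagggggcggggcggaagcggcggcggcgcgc
E2F1: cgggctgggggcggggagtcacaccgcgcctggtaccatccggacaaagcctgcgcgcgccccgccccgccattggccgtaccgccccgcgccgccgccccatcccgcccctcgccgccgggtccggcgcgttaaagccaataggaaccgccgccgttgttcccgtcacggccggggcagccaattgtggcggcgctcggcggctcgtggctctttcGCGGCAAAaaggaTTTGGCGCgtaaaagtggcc
MCM6 held 4 matches in all and E2F1 held 2. Genes with a match had a median log2 fold change of 0.24 (21 of 23 above 0), and genes with a window but no match 0.20 (19 of 21 above 0). Neither of the 2 windows of PRIM2, the gene with the lowest fold change, held a match, which says only that these letters were not in those windows.

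Counts on genes summed to between 28464057 and 31688095 per library, so depth was similar. RIPK4 itself stood at 85.8, 76.5 and 54.7 CPM (counts normalized to the TMM-scaled size of the library) in neg.si replicates 1 to 3 and at 19.9, 16.7 and 21.5 CPM in RIPK4.si replicates 1 to 3. Its levels did not overlap and it fell by 1.90 on the log2 scale (SE 0.203; edgeR adjusted p = 0.0102). The call was lost without neg.si replicate 2, RIPK4.si replicate 1, 2 or 3 (adjusted p = 0.106, 0.094, 0.0622 and 0.0725), with the log2 fold change between -1.98 and -1.79. The neg.si libraries differed from each other by GC content: the Spearman correlation between a gene's level relative to the 6-library mean and its GC content was 0.555 in neg.si replicate 1, 0.0814 in replicate 2 and -0.547 in replicate 3, and between -0.0788 and 0.165 in the RIPK4.si libraries. The edgeR fit, alone, with the replicate block and with each library left out, was therefore repeated with each library's GC trend removed. Melanocyte and melanoma markers summed to between 3710 and 3921 CPM in neg.si and between 2592 and 2757 CPM in RIPK4.si, with all 8 of 8 tested. PMEL was the only 1 of them called, and fell by 1.30 on the log2 scale; TYR, DCT, S100B and SOX10 had log2 fold changes of -0.57, -0.73, -0.48 and -0.15, and MITF, MLANA and TYRP1 of 0.04, 0.06 and 0.36. The keratinocyte, fibroblast, endothelial and leukocyte lists summed to at most 15.1, 2.63, 1.46 and 1.3 CPM. Of the defining markers of those other cell types, KRT5, KRT14, DCN, COL1A1, CD3E and LYZ were at 0 in at least 1 library, while KRT10 (9.99 to 15.1 CPM), LUM (0.266 to 1.48), PDGFRA (0.292 to 1.08), PECAM1 (0.266 to 1.01), VWF (0.347 to 0.865) and PTPRC (0.0703 to 0.423) were above 0 in every library. KRT1, CDH5 and CD68 were not analysed here and are not part of these sums. The part of the melanocyte markers in the results below was not tested.

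Levels between genes were compared per length, as CPM per kilobase of annotated exon. In neg.si, PCNA was the most abundant transcript at 112 ± 26.6 (SD, n = 3). MCM7 (49.1 ± 11), MCM3 (48.8 ± 4.09), TK1 (43.8 ± 16.1) and RRM1 (40.1 ± 1.38) followed. The intervals of mean ± SD of MCM7 and TK1 overlapped those of all the other 3, while those of MCM3 and RRM1 did not overlap each other. The DNA polymerase alpha subunit POLA2 was lowest at 0.393 ± 0.0205, below GINS4 (1.06 ± 0.0921), and the intervals of mean ± SD of CLSPN (1.35 ± 0.682), GINS3 (1.75 ± 0.108) and ORC6 (1.91 ± 0.719) overlapped each other. Subunits of 1 complex differed: among MCM2-7, MCM2 was lowest at 4.72 ± 1.82 and MCM7 highest. Exons of other genes cover 23.6% of MCM2 and 23.4% of GINS4 on the opposite strand, and 16.8% of POLA2 on the same strand. Strand was ignored in counting, so the low levels of these genes are less certain. The order moved with the length used. Per coding length PCNA remained first, RRM2 (155 ± 10.6) and RPA3 (153 ± 30) came next, where per exon length they were at places 9 and 14.

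**Figure D1:**
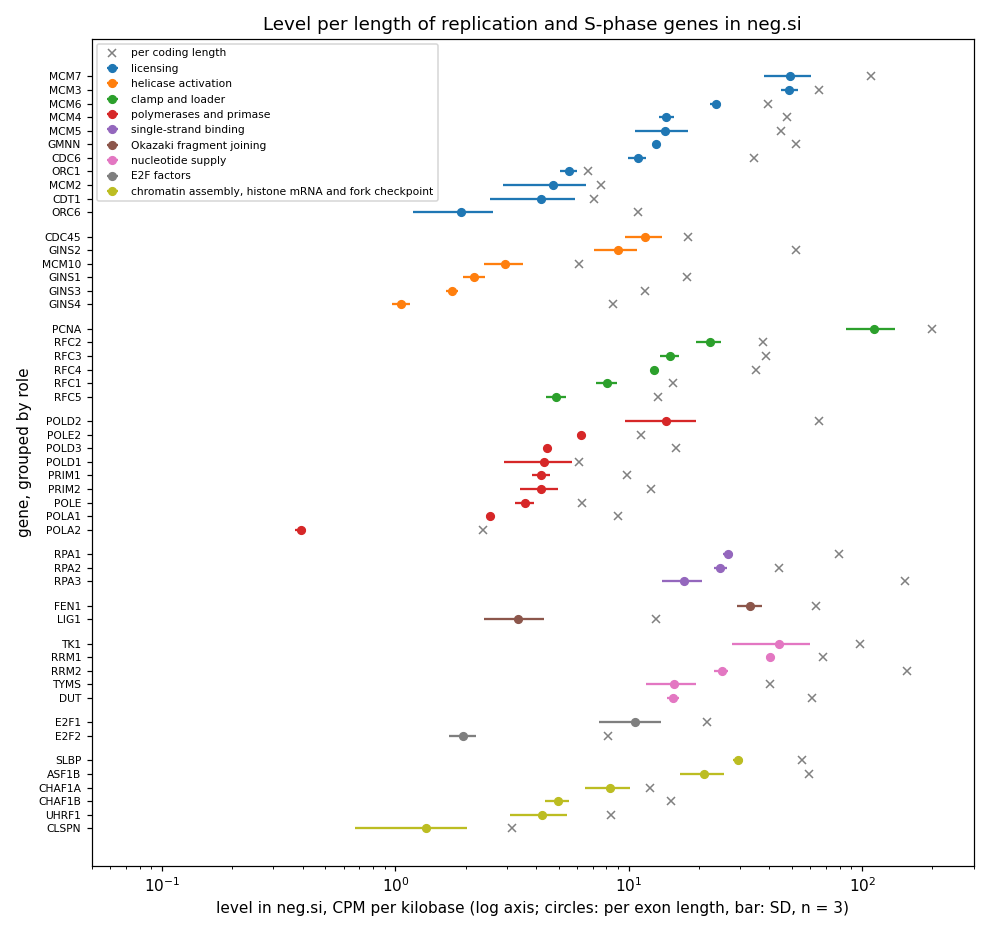
Level of each of the 50 genes in neg.si, as CPM per kilobase on a log axis, grouped by role. Circles give the mean per exon length with SD over 3 libraries, and crosses give the mean per coding length; PCNA stands highest at 112 and POLA2 lowest at 0.393 per exon length.

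Across the 50 genes, small positive differences were the rule and none passed the test in edgeR. The log2 fold change was above 0 in 45 of 50 genes, where 46.6% of all genes tested were above 0. The median was 0.21 for the 50 genes and -0.02 for all genes tested, and the range was -0.92 to 0.52. In edgeR's test 0 of 50 had an adjusted p under 0.05, where 0.767% of all genes tested did. At an unadjusted p under 0.05, 3 were higher in RIPK4.si (MCM6, RFC1 and POLD3; 4.85% of all genes) and 1 was lower (PRIM2; 6% of all genes). This count of 4 rested on the libraries used: it was 18 without neg.si replicate 1, 3 to 5 without any other library, and 7 with the replicate number as a block. DESeq2 called 2 of the 50, MCM6 higher and PRIM2 lower, where it called 2.78% of its genes. CPM did not overlap between the groups in 14 genes that were higher (8.23% of all genes) and in PRIM2, which was lower (9.40% of all genes). Only PRIM2 differed by 1.5-fold or more. The median standard error was 0.18, close to the median difference itself. Genes of this list are transcribed together, so the 45 are not 45 separate observations, and 1 library can move many of them at once: neg.si replicate 3 was the lowest of the 6 libraries in 30 of the 50 genes, and RIPK4.si replicate 2 was the highest in 27. The median log2 fold change was 0.30 when replicate 1 of neg.si was left out, 0.16 when replicate 3 was, and between 0.18 and 0.25 without each of the other 4 libraries. When 1 library was left out, the sign turned in 8 of the 50 genes (ORC6, GMNN, MCM10, RFC3, RFC5, RPA2, TYMS and CLSPN), and a further 27 kept their sign but moved by over 1.5 times. The other 15 stayed within 1.5 times, and were CDC6, MCM3, MCM4, MCM6, GINS3, RFC1, RFC4, POLA1, POLA2, PRIM2, POLD3, POLE, RRM2, E2F2 and SLBP.

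**Figure D2:**
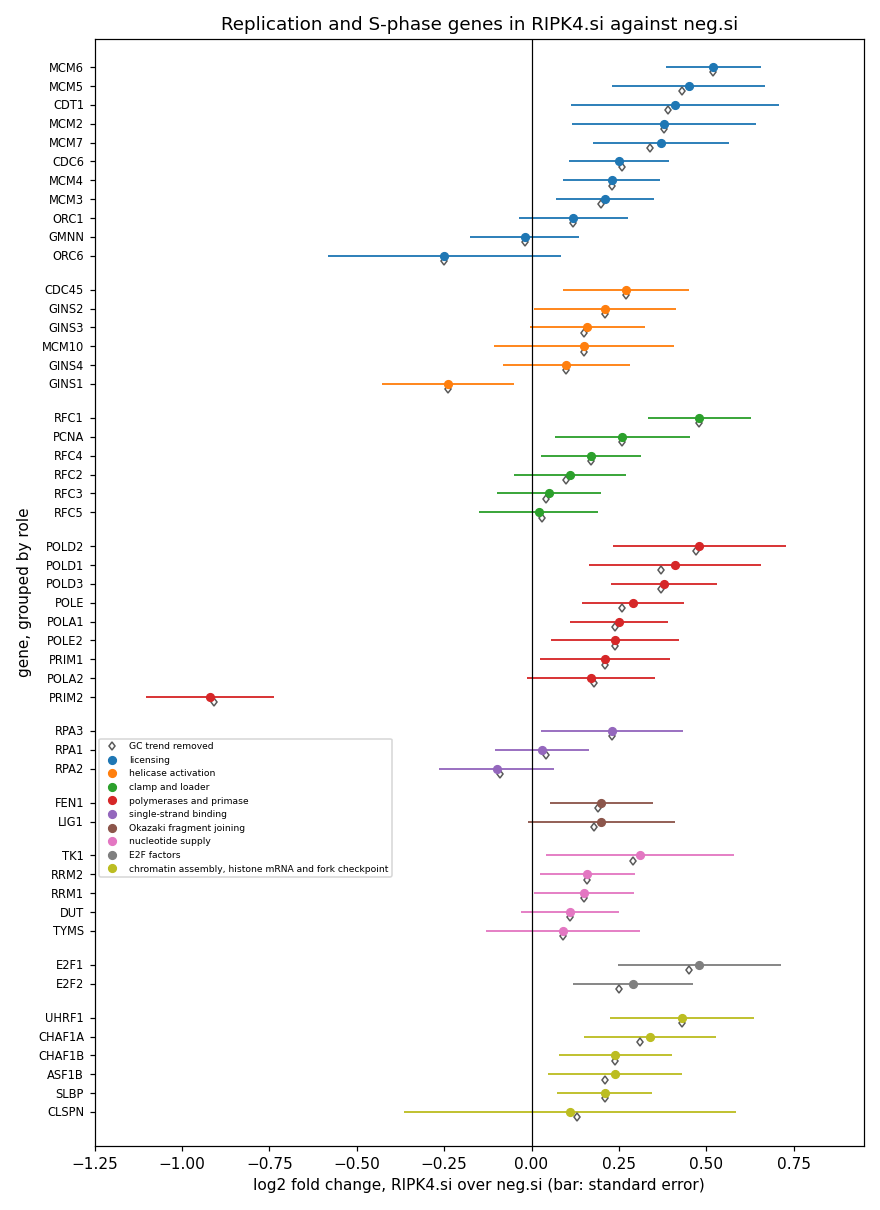
Log2 fold change of RIPK4.si over neg.si for the 50 genes, grouped by role. Filled circles with bars are the edgeR estimate and its standard error, and open diamonds the estimate with the GC trend removed; all but 5 genes lie above 0 and PRIM2 stands alone at -0.92.

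With the GC trend removed, the estimates stayed in place and their errors shrank, the median log2 fold change being 0.21 again and the median standard error 0.127. In that fit 2 of 50 genes were called, PRIM2 lower and RFC1 higher, where 3.43% of all genes were called. At an unadjusted p under 0.05, 13 of 50 were higher, where 7.17% of all genes were, and PRIM2 was the only 1 lower, where 9.22% were. When replicate 1 or 2 of neg.si was left out, 19 or 8 members passed this cut in either direction in place of 14, and 10 to 15 did when any other library was. Levels with the trend removed did not overlap in 21 genes that were higher (10.2% of all genes) and in 1 that was lower (13.1%).

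Of 11 licensing genes, 9 had a log2 fold change above 0, with a median of 0.25, and none was called by edgeR. MCM6, a helicase subunit, was highest of them. It stood at 104, 95.2 and 93.6 CPM in neg.si and at 141, 147 and 133 CPM in RIPK4.si. Every RIPK4.si library was above every neg.si library. The mean was 97.5 ± 5.36 against 140 ± 7.08 CPM (SD, n = 3), a log2 fold change of 0.52 (SE 0.136; adjusted p = 0.144 in edgeR, 0.0493 in DESeq2 and 0.0683 with the GC trend removed). Over 20 alternatives the adjusted p ran from 0.0493 to 0.601, with 1 under 0.05. MCM6 is at chr2:135839626-135876443 on the minus strand, and no annotated exon of another gene overlaps its own.

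The other MCM subunits had log2 fold changes between 0.21 and 0.45. MCM3 was at 194, 175 and 164 CPM in neg.si and 206, 215 and 196 CPM in RIPK4.si. MCM4 was at 150, 147 and 131 CPM in neg.si and 169, 159 and 175 CPM in RIPK4.si. In both of these the groups did not overlap, though the log2 fold changes were only 0.21 (SE 0.141) and 0.23 (SE 0.139). MCM5 was at 129, 107 and 75.2 CPM in neg.si and 119, 169 and 138 CPM in RIPK4.si, and MCM7 at 299, 243 and 190 against 298, 363 and 283 CPM. MCM2 was at 31.4, 21 and 14.4 CPM in neg.si and 26.6, 33.1 and 27.4 CPM in RIPK4.si. In these 3 the groups overlapped, with neg.si replicate 1 high, and after removal of the GC trend they did not. With 1 library left out, the log2 fold change ran from 0.15 to 0.73 for MCM2, from 0.27 to 0.65 for MCM5 and from 0.22 to 0.56 for MCM7, lowest in each when replicate 3 of neg.si was left out and highest when replicate 1 was. Exons of a gene on the opposite strand cover 23.6% of the exonic bases of MCM2, and strand was ignored in counting, so its value is less certain.

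Among the loading factors, CDC6 was at 53.1, 56.6 and 63.3 CPM in neg.si and 73, 65.8 and 67.2 CPM in RIPK4.si, without overlap (log2 fold change 0.25, SE 0.143). CDT1, which brings MCM2-7 to origins, was at 16, 12 and 6.83 CPM in neg.si and 11.9, 16.2 and 18 CPM in RIPK4.si, with overlap (0.41, SE 0.298). Its value was 0.14 or 0.73 when replicate 3 or 1 of neg.si was left out. GMNN, whose product geminin blocks CDT1 once S phase has begun, had a log2 fold change of -0.02 (SE 0.155; -0.12 to 0.06 with 1 library left out), and ORC1 of 0.12 (SE 0.157). ORC6, the smallest subunit of the origin recognition complex, was lowest of the licensing genes. It was at 5.49, 7.56 and 11.6 CPM in neg.si and 8.86, 4.22 and 7.59 CPM in RIPK4.si, so that its libraries were interleaved. Its log2 fold change of -0.25 (SE 0.333; edgeR adjusted p = 0.898) turned to 0.08 without neg.si replicate 3 and to 0.01 without RIPK4.si replicate 2.

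The 6 genes of helicase activation had a median log2 fold change of 0.15, and 5 were above 0. CDC45 was highest at 0.27 (SE 0.18; edgeR adjusted p = 0.702), with 41.3, 34.4 and 28.8 CPM in neg.si and 37.8, 47.6 and 40.9 CPM in RIPK4.si, and was 0.16 or 0.43 when replicate 3 or 1 of neg.si was left out. GINS1 was lowest at -0.24 (SE 0.189; edgeR adjusted p = 0.782), with 15.9, 17 and 19.5 CPM in neg.si and 16.7, 11.8 and 16 CPM in RIPK4.si, and was -0.08 without RIPK4.si replicate 2. Both overlapped between groups. The 4 GINS subunits form 1 complex, and their log2 fold changes were -0.24, 0.21, 0.16 and 0.10 for GINS1 to GINS4. Opposite-strand exons cover 10.9% of GINS3 and 23.4% of GINS4. MCM10, which acts when the helicase starts to unwind, was at 14.1, 14.6 and 19.7 CPM in neg.si and 24.2, 12.3 and 17.3 CPM in RIPK4.si (0.15, SE 0.257), and its value was -0.12 without RIPK4.si replicate 1.

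RFC1, the large subunit of the complex that opens PCNA and places it on DNA, had the highest log2 fold change of the clamp and loader genes. It was at 49, 52.9 and 60 CPM in neg.si and at 80.5, 74 and 70.9 CPM in RIPK4.si. The groups did not overlap, with means of 54 ± 5.54 and 75.1 ± 4.9 CPM (SD, n = 3). The log2 fold change was 0.48 (SE 0.147; edgeR adjusted p = 0.227), and RFC1 rose in the fit with the GC trend removed (0.48, SE 0.102; adjusted p = 0.0411). DESeq2 gave an adjusted p of 0.111, and over 20 alternatives it ran from 0.0411 to 0.689, with 1 under 0.05. RFC1 lies at chr4:39287456-39366375 on the minus strand.

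The 4 small subunits of the loader did not share that value. RFC2, RFC3, RFC4 and RFC5 had log2 fold changes of 0.11, 0.05, 0.17 and 0.02, each with a standard error between 0.144 and 0.171. RFC5 was at 15.3, 14.7 and 17.6 CPM in neg.si and 18.2, 14.2 and 16 CPM in RIPK4.si, and its sign turned when neg.si replicate 2 or RIPK4.si replicate 1 was left out (-0.01 and -0.06). PCNA was at 198, 147 and 125 CPM in neg.si and 186, 211 and 167 CPM in RIPK4.si, with overlap (0.26, SE 0.194; edgeR adjusted p = 0.746; 0.13 or 0.49 when replicate 3 or 1 of neg.si was left out). The difference between RFC1 and the small subunits was not tested.

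The 9 polymerase and primase genes included both POLD2, with a log2 fold change of 0.48, and PRIM2, the only 1 of the 9 that was lower. PRIM2 encodes the large subunit of primase, which with PRIM1 makes the RNA primers that polymerase alpha extends. PRIM2 was at 20.9, 21.3 and 28.8 CPM in neg.si and at 13.4, 11.6 and 12.4 CPM in RIPK4.si, from 648, 639 and 914 counts against 393, 336 and 386. All 3 RIPK4.si libraries lay below all 3 neg.si libraries. The means were 23.7 ± 4.43 and 12.5 ± 0.884 CPM (SD, n = 3), a ratio of 0.527. The log2 fold change was -0.92 (SE 0.183; adjusted p = 0.0639 in edgeR), which missed the threshold. PRIM2 fell in DESeq2's test (adjusted p = 0.00119), with the GC trend removed (adjusted p = 0.01) and, in edgeR, without neg.si replicate 3 (-0.75, adjusted p = 0.0408). Over the 6 fits that left out 1 library the log2 fold change ran from -0.99 to -0.75 and the adjusted p from 0.0408 to 0.379. Of all 20 alternatives 8 called PRIM2, with the adjusted p between 0.00119 and 0.379.

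PRIM2 lies at chr6:57314805-57646850 on the plus strand. It has a pseudogene with a name of its own, PRIM2BP, so reads shared by the 2 copies make its counts less certain. Its 3′ UTR of 695 bases holds 1 copy of ACAGCTT, a stretch of 7 bases that had been singled out in an earlier look at the same libraries and so supports nothing here. It is shown, in capitals at chr6:57646719-57646725 on the plus strand with 10 bases on either side, as a feature of the gene with the lowest fold change of the 50.
PRIM2: ggagataaaaACAGCTTtggggactgg
Of the 50 genes, 6 (12%) held ACAGCTT in their 3′ UTR, as did 16.1% of 12751 tested genes. The other 5 were CDT1, GINS3, RFC3, CHAF1B and CLSPN, with log2 fold changes of 0.41, 0.16, 0.05, 0.24 and 0.11. Of the other cell cycle genes described further on, 19 held it. Among the 18 of them that were tested, 6 had a log2 fold change above 0 and 12 below. Above 0 were 79 of all 120 tested genes of those lists and 46.6% of all genes tested. The median of the 18 was -0.15, with a range from -1.08 to 0.66. The letters were singled out from these same libraries, so these values support nothing about the site, and its part was not tested.

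The partners of PRIM2 had estimates of the opposite sign. PRIM1, the catalytic subunit of primase, was at 15.3, 13.8 and 12.8 CPM in neg.si and 16, 19.2 and 13.4 CPM in RIPK4.si (0.21, SE 0.186; 0.08 or 0.34 when replicate 2 or 3 of RIPK4.si was left out). POLA1, the catalytic subunit of polymerase alpha, was at 38.1, 39.3 and 41 CPM in neg.si and 44.8, 50.1 and 45.5 CPM in RIPK4.si, without overlap (0.25, SE 0.14). POLA2 had 0.17 (SE 0.183). The 3 partners of PRIM2 in the polymerase alpha-primase complex thus had estimates above 0, and none was called. Same-strand exons of another gene cover 16.8% of POLA2 and 15.1% of PRIM1.

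Polymerase delta copies mainly the lagging strand and polymerase epsilon the leading strand. POLD2 was at 153, 118 and 76 CPM in neg.si and at 151, 193 and 143 CPM in RIPK4.si (0.48, SE 0.247; edgeR adjusted p = 0.546; 0.26 or 0.75 when replicate 3 or 1 of neg.si was left out). The groups overlapped with neg.si replicate 1 above 2 of the RIPK4.si libraries. POLD1, the catalytic subunit, showed the same order of libraries in neg.si, at 27.9, 21.7 and 14.1 CPM, and was at 24, 32.8 and 27.9 CPM in RIPK4.si (0.41, SE 0.247). POLD3 was steadier, at 24.3, 24.2 and 25.2 CPM in neg.si and 35, 28.4 and 32.5 CPM in RIPK4.si, without overlap (0.38, SE 0.152; edgeR adjusted p = 0.39). POLE was at 45, 48.2 and 39.9 CPM in neg.si and 57.7, 52.3 and 53.2 CPM in RIPK4.si, without overlap (0.29, SE 0.146), and POLE2 had 0.24 (SE 0.183).

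**Figure D3:**
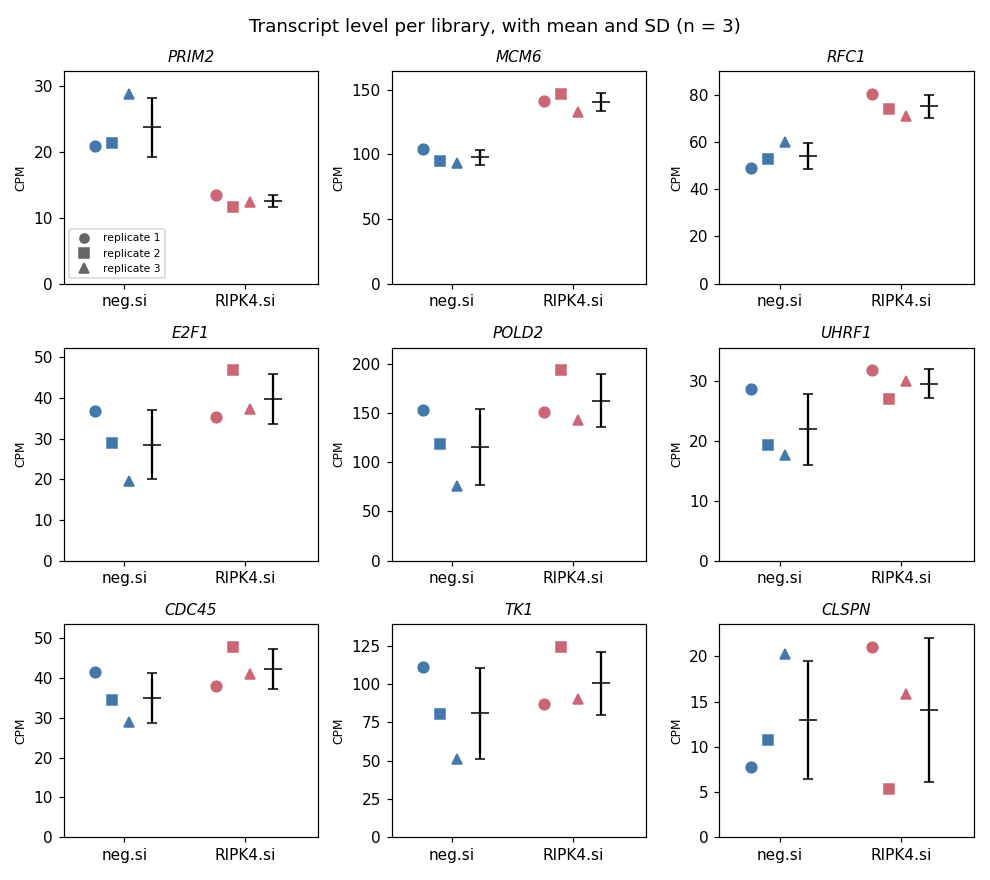
CPM of 9 of the genes in each library (linear axes from 0), with marker shape for the replicate number and black bars for mean and SD of 3 libraries. PRIM2 is lower in all 3 RIPK4.si libraries and MCM6 and RFC1 are higher. In POLD2, TK1 and E2F1, neg.si replicate 1 lies among the RIPK4.si libraries, and neg.si replicates 2 and 3 lie below them.

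RPA coats unwound DNA, and its 3 subunits had the smallest median of the roles, 0.03. RPA1 was at 155, 145 and 141 CPM in neg.si and 154, 151 and 146 CPM in RIPK4.si (0.03, SE 0.134). RPA2 was at 51.1, 50.3 and 45.4 CPM in neg.si and 38.7, 53.6 and 44.6 CPM in RIPK4.si (-0.10, SE 0.164; edgeR adjusted p = 0.922), and without RIPK4.si replicate 1 the value was 0.02. RPA3 was at 68.3, 50.1 and 48.7 CPM in neg.si and 59.3, 81.1 and 55.1 CPM in RIPK4.si (0.23, SE 0.203; edgeR adjusted p = 0.816), with 0.05 when replicate 2 of RIPK4.si was left out and 0.42 when replicate 1 of neg.si was. In none of the 3 did the groups separate. FEN1, the flap endonuclease, and LIG1, the ligase that seals the nick, both had a log2 fold change of 0.20. FEN1 was at 81.7, 72.6 and 63.9 CPM in neg.si and 81.8, 86.5 and 81.8 CPM in RIPK4.si (SE 0.148; edgeR adjusted p = 0.758). LIG1 was at 50.1, 35.4 and 28.9 CPM in neg.si and 41.5, 48.7 and 41 CPM in RIPK4.si (SE 0.211; edgeR adjusted p = 0.86), with a value of 0.04 or 0.46 when replicate 3 or 1 of neg.si was left out. The FEN1 groups were narrowly apart, and the LIG1 groups overlapped.

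All 5 genes of nucleotide supply had estimates above 0, between 0.09 and 0.31, and none was called. TK1, the thymidine kinase of the salvage route, was highest. It was at 111, 80.4 and 51.4 CPM in neg.si and 86.9, 124 and 90.5 CPM in RIPK4.si (0.31, SE 0.268; edgeR adjusted p = 0.801). Its value was 0.08 or 0.63 when replicate 3 or 1 of neg.si was left out. TYMS, which makes thymidylate, was lowest at 0.09 (SE 0.221; edgeR adjusted p = 0.956), with 48.1, 34.1 and 30.8 CPM in neg.si and 46, 43.5 and 30.7 CPM in RIPK4.si. In TYMS, 47.9% of exonic bases are also exonic in ENOSF1 or TYMSOS on the opposite strand, so the reads of these genes cannot be told apart there. RRM1 and RRM2, the subunits of ribonucleotide reductase, had 0.15 (SE 0.142) and 0.16 (SE 0.137). RRM2 was at 213, 230 and 245 CPM in neg.si and 249, 258 and 259 CPM in RIPK4.si, without overlap. DUT, which removes dUTP, had 0.11 (SE 0.139). It has 8 named pseudogenes, 1 of them in the table, and 14.5% of its exonic bases overlap a gene on the opposite strand.

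E2F1, an activator of the G1/S genes, was at 36.7, 29 and 19.7 CPM in neg.si and at 35.3, 46.8 and 37.3 CPM in RIPK4.si. Neg.si replicate 1 lay among the RIPK4.si libraries and the other 2 lay below them. The log2 fold change was 0.48 (SE 0.233; edgeR adjusted p = 0.508), and with the GC trend removed 0.45 (SE 0.109; adjusted p = 0.0659), with levels of 29.2, 28.9 and 26.9 against 36.8, 42 and 37.1 that no longer overlapped. E2F2 was at 12.1, 10.4 and 9.38 CPM in neg.si and 13.2, 12.3 and 13.5 CPM in RIPK4.si, without overlap (0.29, SE 0.172; edgeR adjusted p = 0.641). Removal of the GC trend made the E2F2 groups overlap. The E2F1 value was 0.28 or 0.73 when replicate 3 or 1 of neg.si was left out. Over 20 alternatives the adjusted p ran from 0.0659 to 0.887 for E2F1 and from 0.272 to 0.992 for E2F2.

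All 6 estimates for chromatin assembly, histone mRNA and fork checkpoint genes were above 0, with a median of 0.24. UHRF1, which reads hemimethylated DNA behind the fork, was highest, at 28.7, 19.4 and 17.7 CPM in neg.si and 31.8, 27 and 30 CPM in RIPK4.si (0.43, SE 0.206; edgeR adjusted p = 0.502; 0.69 without neg.si replicate 1). The histone chaperone subunits CHAF1A and CHAF1B had 0.34 (SE 0.189) and 0.24 (SE 0.162), and ASF1B had 0.24 (SE 0.192). SLBP, which binds the stem-loop of histone mRNAs, was at 53.1, 54.4 and 58.3 CPM in neg.si and 61, 64.4 and 66.1 CPM in RIPK4.si, the only gene of this role without overlap (0.21, SE 0.136). CLSPN, whose product claspin helps activate the kinase CHEK1 at stalled forks, varied most of the 50 genes between libraries. It was at 7.81, 10.8 and 20.3 CPM in neg.si, a 2.6-fold range, and at 21, 5.36 and 15.8 CPM in RIPK4.si (0.11, SE 0.474; edgeR adjusted p = 0.975). Its sign turned when replicate 1 of neg.si (-0.13) or of RIPK4.si (-0.29) was left out. ORC6 and MCM10 had the same order of libraries within each group as CLSPN: replicate 3 highest in neg.si, and replicate 1 highest and replicate 2 lowest in RIPK4.si. The GC content of their longest transcripts was 44%, 47.5% and 43.3% for CLSPN, ORC6 and MCM10.

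The spread between control libraries followed GC content among these genes. The longest transcripts of the 50 had a GC content between 38% and 64.3% (median 47.4%, against 47.9% for all genes tested). Over the 50 genes the Spearman correlation of GC content with the log2 ratio of neg.si replicate 1 to replicate 3 was 0.802. This is across genes that share the same 2 libraries and is a description. CDT1 had a log2 ratio of 1.23, MCM2 of 1.13, TK1 of 1.11 and POLD2 of 1.01 between those 2 control libraries, more than any fold change of the 50 genes between conditions. CLSPN (-1.38) and ORC6 (-1.08) went the other way. GC content had a correlation of 0.456 with the log2 fold change between conditions, and of 0.426 after the GC trend was removed. Removal of the trend lowered the median standard error from 0.18 to 0.127 and left the median log2 fold change at 0.21.

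**Figure D4:**
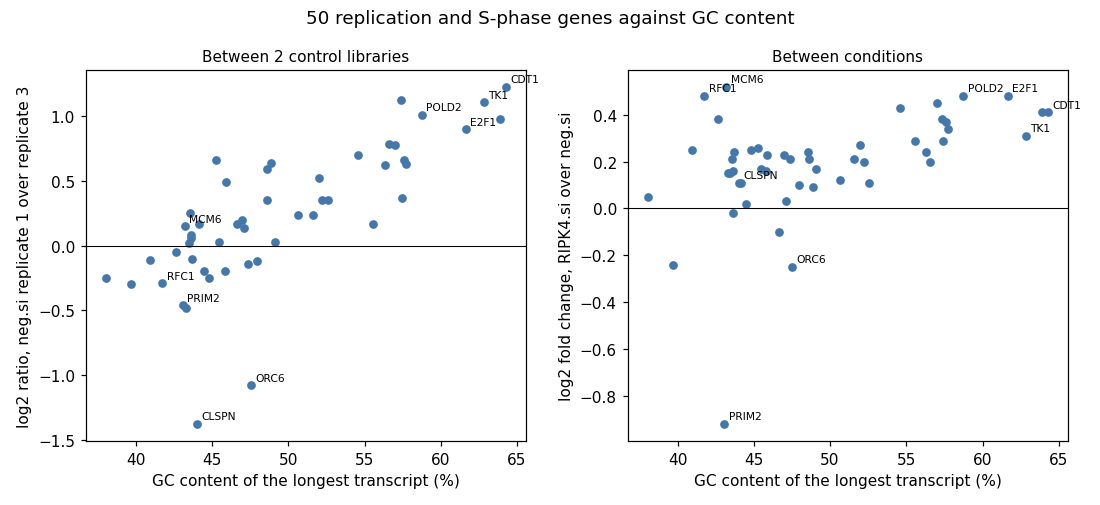
GC content of the longest transcript (%) of the 50 genes against the log2 ratio between neg.si replicates 1 and 3 (left) and the log2 fold change of RIPK4.si over neg.si (right). The left panel rises with GC content (Spearman 0.802) and spans more than 2 log2 units, and the right panel rises less (0.456), with PRIM2 apart at -0.92.

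Other genes of the cell cycle were read from lists chosen by function. Of 128 such genes 120 were tested, 79 with a log2 fold change above 0 and 41 below, where 46.6% of all genes tested were above 0, and the median was 0.10. Of all genes tested, 4.85% were higher and 6% lower at an unadjusted p under 0.05. Other origin and fork genes (29 tested) had 22 above 0, a median of 0.15 and 0 called in edgeR, with 3 higher at an unadjusted p under 0.05 and 0 called by DESeq2. Mitosis genes (29 tested) had a median of 0.07, with 0 called by either tool and 1 at an unadjusted p under 0.05. Other nucleotide and chromatin genes (16 tested) had a median of 0.06 and replication checkpoint genes (10 tested, 5 above 0 and 5 below) a median of 0.00, each with 0 called by either tool and 0 at an unadjusted p under 0.05. Of 12 histone genes, 8 were tested, with a median of 0.50 and 0 called by either tool, 2 of them at an unadjusted p under 0.05. Replication-dependent histone mRNAs lack a poly(A) tail and are poorly captured in poly(A) libraries, and H1F0, in the same list, is not tied to S phase, so that this list says little about S phase. 

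The G1/S regulators (28 tested) had 15 above 0, 13 below and a median of 0.03, with 3 higher and 5 lower at an unadjusted p under 0.05. The 3 higher ones, none of them called by edgeR with the GC trend left in, were CDC25A, a phosphatase that activates CDK2 (0.63, SE 0.18; adjusted p = 0.191), CCNE2, a cyclin E (0.53, SE 0.184; adjusted p = 0.301), and TFDP2, a partner of E2F factors (0.41, SE 0.148; adjusted p = 0.326). In these 3 every RIPK4.si library was above every neg.si library. The 5 lower ones were CDK2, CDK6, SKP2, E2F5 (-0.72, SE 0.211; adjusted p = 0.201) and CDKN1A (-0.66, SE 0.215; adjusted p = 0.258). CDK2, the kinase that acts with cyclin E at the start of S phase, was at 115, 110 and 112 CPM in neg.si and 65.3, 64.2 and 62.1 CPM in RIPK4.si. It was the only gene of the 120 that edgeR called, where 0.767% of all genes were called, and it fell by 0.81 on the log2 scale (SE 0.132; adjusted p = 0.0355). Without neg.si replicate 1 or 2, or RIPK4.si replicate 1, 2 or 3, its adjusted p was 0.0593, 0.279, 0.184, 0.126 and 0.311, with the log2 fold change between -0.82 and -0.78. Opposite-strand exons, of PMEL among others, cover 16.8% of the exonic bases of CDK2. PMEL, a melanosome gene, fell too (log2 fold change -1.30, adjusted p = 0.0111 in edgeR), and its part in the value of CDK2 was not tested. CDK6, a kinase of early G1, was at 141, 190 and 282 CPM in neg.si and 105, 73.2 and 111 CPM in RIPK4.si (-1.08, SE 0.263; adjusted p = 0.123 in edgeR and 0.00399 in DESeq2). SKP2, which marks CDK inhibitors for degradation, was at 25.1, 24.6 and 40.4 CPM in neg.si and 17.9, 11.2 and 15.7 CPM in RIPK4.si (-1.01, SE 0.25; adjusted p = 0.128 in edgeR and 0.00763 in DESeq2). In all 3 the groups did not overlap. Over 20 alternatives the adjusted p ran from 0.000115 to 0.311 for CDK2, from 0.00399 to 0.383 for CDK6 and from 0.00763 to 0.473 for SKP2. DESeq2 called these 3 of the 120, where it called 2.78% of its genes. With the GC trend removed 6 of the 120 were called, where 3.43% of all genes were: CDC25A rose, and CDK2, CDK6, CDKN1A, E2F5 and SKP2 fell. With the replicate block added to that fit, CDC25A and E2F5 were no longer called, and the mitosis gene TTK was. CDC25A was called in no fit with the trend removed that left out 1 library.

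With 3 libraries against 3, an exact permutation test of a single gene cannot give a two-sided p below 0.1, so the tests rest on the spread shared across genes. Counts were simulated for each gene on its own, with no GC trend across genes. The shares called need therefore not hold for the real libraries. On these counts, with 3 libraries against 3, edgeR called 46.4% of genes with a planted log2 change of 1 and 92.9% with a planted change of 2. The log2 fold changes of 49 of the 50 genes lay between -0.25 and 0.52, under the smaller of these sizes, and the share called at such sizes was not tested.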

How the data were processed

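The data are 6 RNA-seq libraries of WM266.4 cells, 3 neg.si and 3 RIPK4.si, grouped by the labels. The study describes the replicates as biological. The authors prepared poly(A) libraries, trimmed paired reads with Cutadapt, used TopHat for alignment to GRCh38.p13 and assigned read pairs to genes with HTSeq, ignoring strand. The deposited counts are raw whole numbers of read pairs, listed where the 6 libraries sum to 6 or more. The deposited signal values, the same counts over a DESeq2 size factor for each library, come from the authors and were not used. Columns of the authors' own comparison (fold change, p-value, FDR and standard error) were not used either.

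The main test was that of edgeR 4.0.16 (R 4.3.3), with TMM, edgeR's filter on low counts, a quasi-likelihood test of condition over 16297 genes and Benjamini-Hochberg adjustment over all of them. Standard errors were taken as the absolute log2 fold change over the root of F. The study's own test, DESeq2, was run as an alternative (1.42.0). GC content, lengths, overlaps and 3′ UTRs came from GENCODE release 44 on GRCh38, in which 24416 identifiers were found. Each library's trend on GC content was removed by a lowess with span 0.3, over 16239 genes. Further alternatives were other normalizations and filters on low counts, a block on the replicate number, and each library left out. CPM were scaled to TMM library sizes. Python 3.11.15 and matplotlib 3.10.9 were used for summaries and plots.

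Same-numbered libraries had correlations of their deviations from the group means of -0.242, 0.251 and 0.346. Neg.si replicates 1 and 3 had 0.413 and -0.498 with RIPK4.si replicate 2. The GC trend was left in for these values, so they cannot decide whether the numbers mark pairs. The numbers were not taken as pairs in the main test. The genes, lists and roles were chosen with earlier results of these data known. Values in every library were given for genes called by edgeR or DESeq2, and for the highest and lowest of each role. Further genes were named to account for each role and were chosen after their values were seen. The test was checked on simulated data with 200 changed genes and no GC trend across genes. On these data edgeR called 4 of 16094 unchanged genes, a count that need not hold for the real libraries. DESeq2 called 24 of 17668 unchanged genes, and 60.6% and 90% of genes with planted log2 changes of 1 and 2.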

Additional observations from a re-analysis of the deposited data

How the results depend on the processing

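The number of the 50 genes called was 0 in edgeR and was also 0 under DESeq2 size factors, upper-quartile normalization, both other filters on low counts and the replicate block alone. It was 2 with DESeq2 (MCM6, PRIM2), 2 with the GC trend removed (PRIM2, RFC1) and 1 (PRIM2) with the GC trend removed together with the replicate block. Leaving out single libraries gave 0 to 1, and the same with the GC trend removed, an alternative chosen after seeing the data, gave 0 to 1 (PRIM2 in each case). The replicate block thus lost RFC1 beside the GC trend and changed no other call among the 50 genes. Genes with a log2 fold change above 0 numbered 43 to 46 over all alternatives. In the other lists the count of 1 (CDK2) became 3 with DESeq2, 6 with the GC trend removed, 5 with that and the replicate block, 0 to 1 without single libraries and 0 to 6 without single libraries and with the GC trend removed. RIPK4 ran from -2.06 to -1.74 without single libraries, and missed the threshold in 4 of those 6 fits.

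Among the 50 genes, the sign turned in 8 when 1 library was left out. Without single libraries CLSPN ran from -0.29 to 0.60, RFC5 from -0.06 to 0.12, ORC6 from -0.46 to 0.08, TYMS from -0.03 to 0.32 and RPA2 from -0.22 to 0.02, as did GMNN from -0.12 to 0.06 and MCM10 from -0.12 to 0.37. RFC3, at 0.05, was just below 0 without RIPK4.si replicate 2. CLSPN became -0.13 and -0.29 without neg.si replicate 1 and RIPK4.si replicate 1 (-0.08 and -0.26 with the GC trend removed too). RFC5 became -0.01 and -0.06 without neg.si replicate 2 and RIPK4.si replicate 1 (-0.01 and -0.05). ORC6 became 0.08 and 0.01 without neg.si replicate 3 and RIPK4.si replicate 2 (0.08 and 0.01). TYMS became -0.03 and -0.01 without neg.si replicate 3 and RIPK4.si replicate 1 (-0.01 with the trend removed, without neg.si replicate 3). RPA2 became 0.02 without RIPK4.si replicate 1 (0.04). The causes were not tested. Of 420 values of the 21 genes named by rule over the alternatives, 376 kept their sign and side of the threshold, 20 came past it, 7 no longer passed it and 17 changed sign.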
